A study of Mus musculus with 39 samples.

Results

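Toll-like receptors are membrane proteins that recognise molecular patterns of microbes and of damaged cells and start inflammatory signalling. The mouse genes Tlr1, Tlr2, Tlr3, Tlr4, Tlr5, Tlr6, Tlr7, Tlr8, Tlr9 and Tlr13 were followed here in monocytes and macrophages of the mouse lung. These 10 genes were a fixed list matched by symbol, and all 10 were found among the 43430 gene identifiers of the deposited count table. No rule on measured values picked them, but earlier results of these data were known when the list was made. All 10 passed the filter on low counts in every fit.

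The series holds 39 RNA sequencing libraries of cells sorted from C57BL/6J mice. One cell type is lung monocytes of naive mice, which received no bleomycin (20 libraries). The other is monocyte-derived alveolar macrophages with a low level of the surface protein Siglec F, sorted 21 days after bleomycin, an agent used to injure the lung and cause scarring (19 libraries). Mice of either kind were young or old, and were given saline or the small molecule ISRIB, an inhibitor of the integrated stress response. The 8 groups were therefore young saline, young ISRIB, old saline and old ISRIB monocytes, and the same 4 combinations of macrophages. Each group had 5 libraries except young ISRIB macrophages, with 4. The sample labels put the young mice at 8 to 12 weeks and the old mice at over 18 months. In the series text young is 3 to 5 months and old is 18 to 24 months. Daily ISRIB injection into the abdomen from day 7 is stated for the bleomycin mice, and no timing is stated for naive mice. Every macrophage library came from a bleomycin-treated mouse and every monocyte library from a naive one, so cell type and bleomycin cannot be told apart. The labels number the replicates and do not state that each is a separate mouse, so p-values measure the spread between these libraries.

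Each Toll-like receptor has an outer domain of leucine-rich repeats that binds the ligand and an inner TIR domain that recruits adaptor proteins. Tlr2 pairs with Tlr1 or Tlr6 at the cell surface to bind bacterial lipoproteins, Tlr4 binds lipopolysaccharide, and Tlr5 binds flagellin. Tlr3, Tlr7, Tlr8, Tlr9 and Tlr13 sit in endosomes and recognise nucleic acids, namely double-stranded RNA (Tlr3), single-stranded RNA (Tlr7 and Tlr8), DNA with unmethylated CpG (Tlr9) and bacterial ribosomal RNA (Tlr13). All signal through the adaptor Myd88 except Tlr3, which uses Ticam1, and Tlr4, which uses both. In the lung these receptors are known from the response of macrophages and monocytes to infection and to injury.

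The 39 libraries held between 4595331 and 16056708 counts (median 8628240). One library, young saline monocyte replicate 4, was the smallest and had the fewest genes with a count (12324, against 13708 to 17313 in the others). The cell labels were checked against marker genes. Ly6c2, a marker of classical monocytes, measured 278 to 698 CPM (the count scaled to a fixed library total) in monocytes and at most 7.01 CPM in macrophages. Of the 8 classical monocyte markers, Chil3 went the other way (median 959 CPM in monocytes and 5549 CPM in macrophages), and the summed level of the 8 overlapped between the cell types (5238 to 6635 CPM in old ISRIB monocytes and 5917 to 12269 CPM in old ISRIB macrophages). Mertk, a macrophage receptor, measured 326 to 600 CPM in macrophages and at most 7.47 CPM in monocytes. Siglecf measured 46.8 to 156 CPM in macrophages and at most 1.57 CPM in monocytes. The 8 markers of nonclassical monocytes summed to 2394 to 7360 CPM across monocyte libraries, so the monocyte sort held these markers at differing levels. Among cells the gates should not hold, the 8 B cell markers summed to 11.1 to 43.3 CPM in monocytes and 0.290 to 46.5 CPM in macrophages. Of the plasma cell list, Ighm measured 114 to 232 CPM in monocytes and 3.23 to 380 CPM in macrophages. Igkc reached 38.1 and 143 CPM in the same order, while Tnfrsf17 did not exceed 0.793 CPM. Siglech, a plasmacytoid dendritic cell marker, did not exceed 5.00 CPM. Other genes of its list were higher, among them Tcf4 (112 to 239 CPM in monocytes and 62.0 to 102 CPM in macrophages). Bst2 measured 44.4 to 123 and 43.6 to 106 CPM in the same order. In monocytes the T and NK cell markers summed to at most 92.8 CPM. Those of type 2 conventional and mature dendritic cells summed to at most 290 CPM there. Ly6g, the defining neutrophil marker, was 0 in all 19 macrophage libraries. Other genes of the neutrophil list were present there, among them S100a8 (16.3 to 41.4 CPM) and Cxcr2 (up to 17.3 CPM). In bulk libraries such as these, fewer cells of a type and less RNA per cell cannot be told apart.

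The 10 genes lie on 7 chromosomes of the mouse genome build GRCm38, with coordinates here from GENCODE vM21. Among the surface receptors, Tlr1 (ENSMUSG00000044827) spans 64924679 to 64933563 and Tlr6 (ENSMUSG00000051498) spans 64952031 to 64960097, both on the minus strand of chromosome 5. Tlr2 (ENSMUSG00000027995) spans 83836272 to 83841767 on the minus strand of chromosome 3. Tlr4 (ENSMUSG00000039005) spans 66827584 to 66930284 on the plus strand of chromosome 4, and Tlr5 (ENSMUSG00000079164) spans 182954788 to 182976044 on the plus strand of chromosome 1. Tlr1 and Tlr6 are neighbours 18467 bases apart and close in sequence. Of the 50-base words in their exons, 454 occur in both genes, which is 13.6% of those of Tlr1 and 12.3% of those of Tlr6, so reads there cannot be assigned to either with certainty.

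Among the endosomal receptors, Tlr7 (ENSMUSG00000044583) spans 167304929 to 167330558 and Tlr8 (ENSMUSG00000040522) spans 167242696 to 167264329, both on the minus strand of chromosome X and 40599 bases apart. Tlr13 (ENSMUSG00000033777) is also on chromosome X, from 106143204 to 106160493 on the plus strand. Tlr9 (ENSMUSG00000045322) spans 106222598 to 106226883 on the plus strand of chromosome 9. Tlr3 (ENSMUSG00000031639) spans 45395665 to 45411080 on the minus strand of chromosome 8. An antisense transcript, Gm45542, overlaps 381 exon bases of Tlr3 (7.32%), and the strand setting of the counting is not given in the sources used here.

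The promoters of Tlr9 and Tlr8 are shown because, among the endosomal receptors that were not higher in macrophages in the saline comparison below, Tlr9 had the largest absolute log2 fold change between the cell types and Tlr8 the smallest. Each run is the 250 bases before the RefSeq start of the gene (GRCm38.p6), read on the strand of the gene, and neither overlaps an annotated exon of GENCODE vM21. Capitals mark GAGGAA, a short core bound by PU.1 and other ETS factors of myeloid cells, or its reverse complement.
Tlr9, chr9:106222348-106222597, plus strand: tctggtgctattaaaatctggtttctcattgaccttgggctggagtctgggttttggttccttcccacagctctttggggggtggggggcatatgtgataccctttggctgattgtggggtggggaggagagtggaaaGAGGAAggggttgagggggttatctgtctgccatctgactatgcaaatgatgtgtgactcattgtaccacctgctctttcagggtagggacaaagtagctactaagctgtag
Tlr8, chrX:167264330-167264579, minus strand: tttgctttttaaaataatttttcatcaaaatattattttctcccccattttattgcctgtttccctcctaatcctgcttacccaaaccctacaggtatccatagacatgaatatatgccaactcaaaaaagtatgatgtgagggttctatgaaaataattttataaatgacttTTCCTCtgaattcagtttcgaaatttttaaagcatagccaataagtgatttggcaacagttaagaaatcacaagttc
Both promoters hold the motif once, on opposite strands. RefSeq windows were found for 8 of the 10 receptors, 10 windows in all, and Tlr4 and Tlr7 had no entry. GAGGAA occurred on either strand in 4 of these 10 windows (those of Tlr1, Tlr8, Tlr9 and Tlr13), and in 23.3% of all 32851 mouse promoter windows of the same length. No other motif was searched. A match describes the letters only, and the data hold no measurement of binding.

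The first comparison asked how the receptors differed between bleomycin macrophages and naive monocytes. In saline mice 3 receptors were higher in macrophages (Tlr3, Tlr4 and Tlr2) and 6 were lower (Tlr9, Tlr5, Tlr13, Tlr6, Tlr1 and Tlr7), and Tlr8 did not pass the test. A gene was called when the p-value of edgeR's quasi-likelihood test, adjusted by Benjamini and Hochberg over all genes tested, was under 0.05. The count of 9 of 10 called stands beside a background of 70.0% of all 13587 genes called in the same comparison (35.8% higher and 34.2% lower), so being called sets the receptors little apart from other genes. In ISRIB mice all 10 receptors were called, 4 higher and 6 lower, beside a background of 70.0% (35.6% higher and 34.4% lower). The directions were the same in both kinds of mice.

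Tlr3, the sensor of double-stranded RNA, had the largest excess in macrophages. Its lowest, median and highest levels were 0, 2.51 and 5.68 CPM over the 20 monocyte libraries and 19.7, 27.9 and 33.3 CPM over the 19 macrophage libraries. No monocyte library reached the lowest macrophage library. The log2 fold change was 3.19 ± 0.23 (SE) in saline mice (9.10-fold, edgeR adjusted p = 2.62e-15) and 3.53 ± 0.24 in ISRIB mice (adjusted p = 4.02e-16). The monocyte level rested on few reads, at most 47 counts in a library, and the library at 0 allows up to 0.653 CPM (3 counts of its total, for counting error only).

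Tlr4, the lipopolysaccharide receptor, measured 17.6, 38.9 and 89.8 CPM (lowest, median and highest) in monocytes and 119, 147 and 184 CPM in macrophages. The cell types did not overlap, and the spread was wider in monocytes, where the SD was 44.3% of the mean against 12.0% in macrophages. In log2 units the excess was 1.65 ± 0.20 in saline mice (edgeR adjusted p = 2.50e-09) and 1.97 ± 0.21 in ISRIB mice (adjusted p = 6.99e-11).

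Tlr2, the lipoprotein receptor, measured 225, 359 and 673 CPM in monocytes and 559, 729 and 1063 CPM in macrophages. The ranges overlapped only in young saline mice, where the highest monocyte library reached 673 CPM and the lowest macrophage library was at 637 CPM. Macrophages exceeded monocytes by a log2 fold change of 1.10 ± 0.14 in saline mice (edgeR adjusted p = 2.83e-09) and 1.0 ± 0.14 in ISRIB mice (adjusted p = 4.21e-08).

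The partners of Tlr2 went the opposite way. Tlr1 measured 16.9, 33.7 and 51.0 CPM in monocytes and 6.02, 12.7 and 21.5 CPM in macrophages. Its log2 fold change was -1.19 ± 0.18 in saline mice (edgeR adjusted p = 2.20e-07) and -1.34 ± 0.19 in ISRIB mice (adjusted p = 5.19e-08). Tlr6 measured 21.1, 34.4 and 46.0 CPM in monocytes and 9.87, 14.4 and 18.7 CPM in macrophages, with no overlap. Its log2 fold change was -1.25 ± 0.14 in saline mice (adjusted p = 3.53e-10) and -1.12 ± 0.15 in ISRIB mice (adjusted p = 1.17e-08). Both genes were thus lower in macrophages by similar amounts, with the shared sequence named above.

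Tlr5, the flagellin receptor, was the least abundant receptor in macrophages. It measured 6.53, 19.5 and 26 CPM in monocytes and 0.132, 3.14 and 10.7 CPM in macrophages, where 1 library had a single count. On the log2 scale macrophages differed by -2.75 ± 0.39 in saline mice (edgeR adjusted p = 8.62e-08) and -1.78 ± 0.39 in ISRIB mice (adjusted p = 1.02e-04). Its levels in macrophages varied more than those of any other receptor here, with an SD of 86.8% of the mean.

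Tlr9, the CpG DNA receptor, was lower in macrophages in both kinds of mice. It measured 31.6, 120 and 156 CPM in monocytes and 11, 15.5 and 30.5 CPM in macrophages. The lowest monocyte library, young saline replicate 4, was just above the highest macrophage library, and the other 19 monocyte libraries were at 72.9 CPM or more. The log2 fold change was -2.80 ± 0.17 in saline mice (edgeR adjusted p = 6.56e-18) and -2.68 ± 0.18 in ISRIB mice (adjusted p = 8.89e-17). Within each of the 4 combinations of age and treatment the mean CPM in macrophages was 0.116 to 0.161 times that in monocytes. In saline mice the deficits of Tlr9 and Tlr5 differed by less than their standard errors, and in young saline mice alone the ratio of Tlr5 was lower, 0.0994 against 0.159 for Tlr9.

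Tlr13, the receptor of bacterial ribosomal RNA, measured 324, 458 and 612 CPM in monocytes and 131, 168 and 220 CPM in macrophages. No macrophage library reached the lowest monocyte library. The log2 fold change was -1.49 ± 0.09 in saline mice (edgeR adjusted p = 1.55e-17) and -1.22 ± 0.10 in ISRIB mice (adjusted p = 1.85e-14).

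The neighbours Tlr7 and Tlr8, both sensors of single-stranded RNA, differed in their pattern. Tlr7 measured 205, 313 and 428 CPM in monocytes and 114, 164 and 218 CPM in macrophages, so it was lower in macrophages. Its log2 fold change was -0.99 ± 0.09 in saline mice (edgeR adjusted p = 3.09e-12) and -0.72 ± 0.10 in ISRIB mice (adjusted p = 1.51e-08). Tlr8 measured 51.8, 172 and 248 CPM in monocytes and 172, 208 and 267 CPM in macrophages, and the cell types overlapped in all 4 combinations of age and treatment. Its log2 fold change was 0.22 ± 0.14 in saline mice, which was not called (adjusted p = 0.154, 95% interval -0.06 to 0.50), and 0.44 ± 0.14 in ISRIB mice, which was called (adjusted p = 0.00561). The lowest Tlr8 value belongs to young saline monocyte replicate 4, and without that library the saline adjusted p was 0.279. Without young saline monocyte replicate 5, the library with the highest monocyte level, it was 0.0455.

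**Figure D1:**
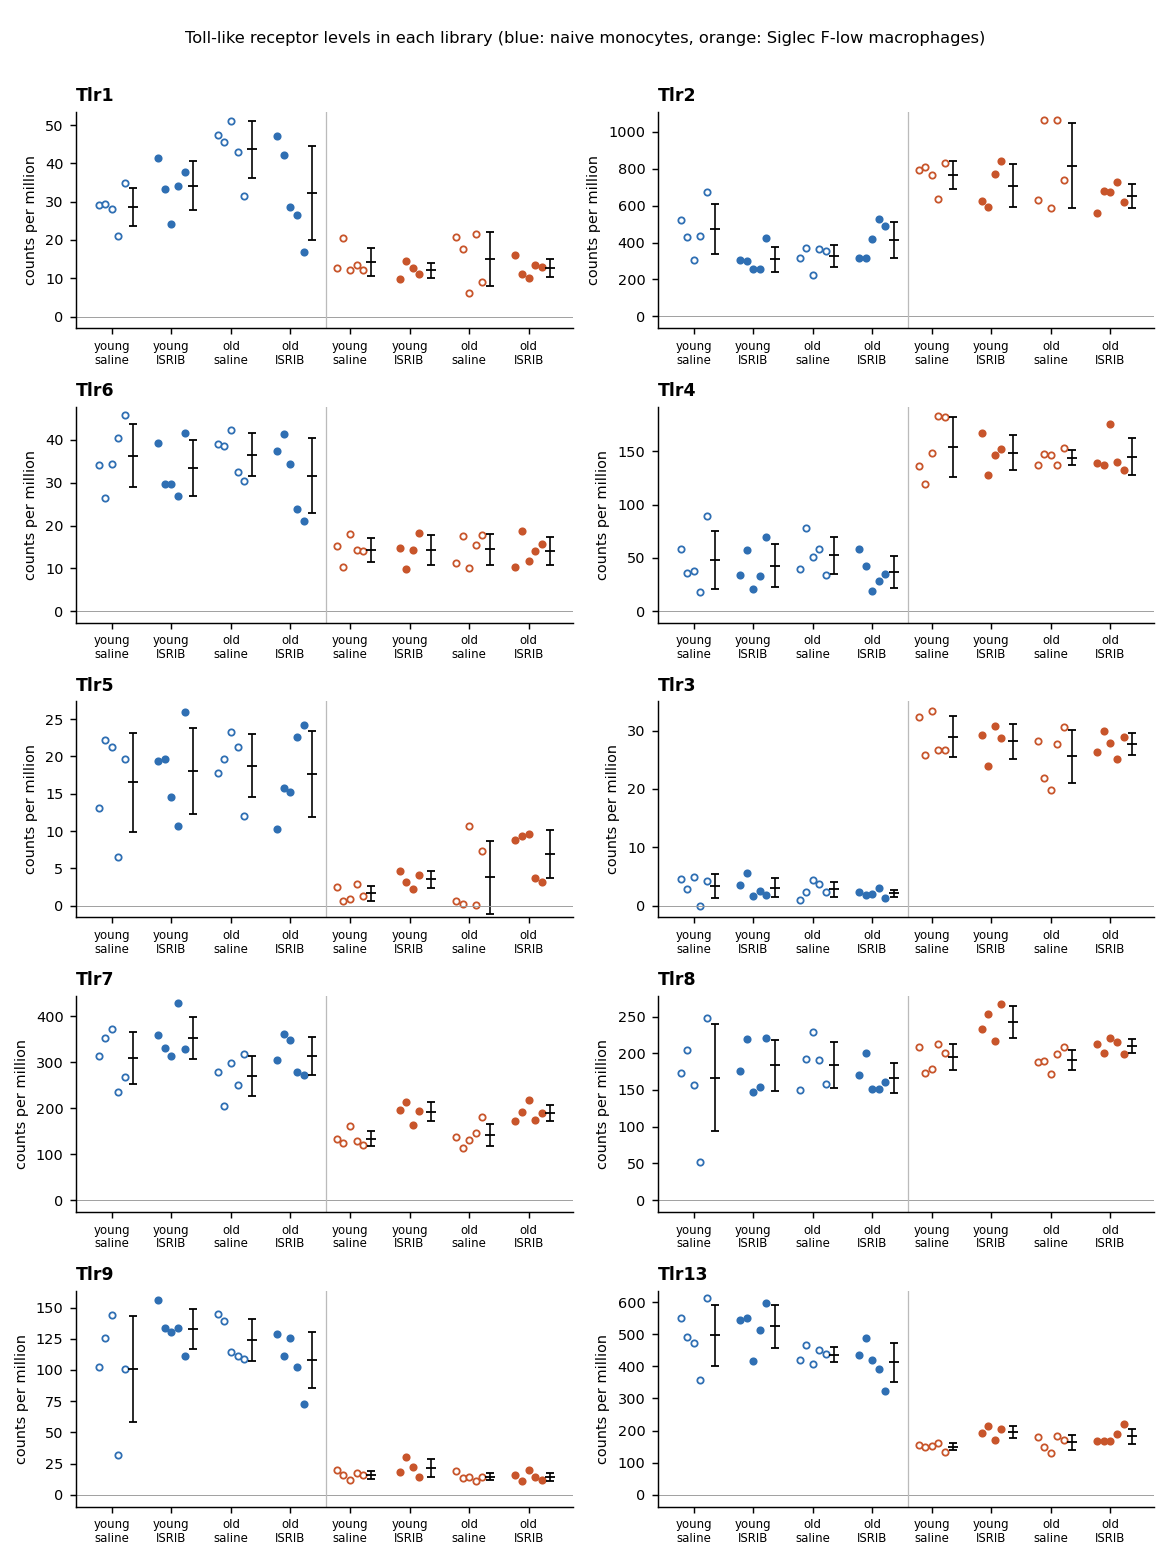
CPM (vertical axes, linear, from 0) of each receptor in every library of the 8 groups, with monocytes in blue, macrophages in orange, saline as open and ISRIB as filled points; black bars are the group mean ± SD. Tlr3 and Tlr4 lie higher in all macrophage groups, Tlr9 and Tlr13 lower, and young saline monocyte replicate 4 is the low point of Tlr8 (51.8 CPM) and Tlr9 (31.6 CPM) in monocytes.

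**Figure D2:**
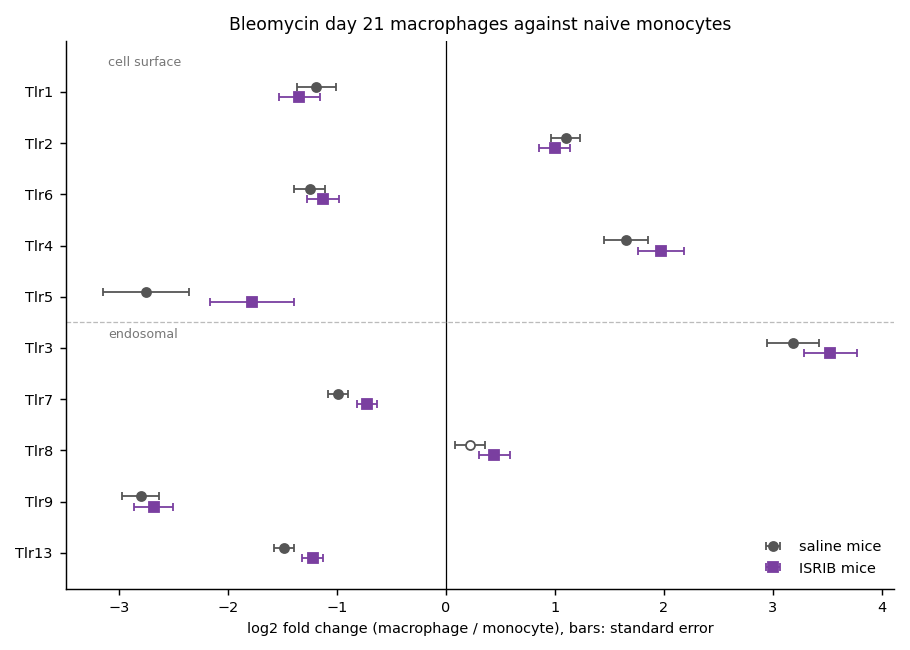
Log2 fold change of macrophages over monocytes (points) with its standard error (bars) for saline mice (grey circles) and ISRIB mice (purple squares); filled points have an edgeR adjusted p under 0.05. Values run from -2.80 for Tlr9 to 3.53 for Tlr3, and Tlr8 in saline mice is the open point.

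The libraries of the cell types did not overlap for 6 of 10 receptors in saline mice, beside 28% of all genes, and for 9 of 10 in ISRIB mice, beside 32.8%. The 9 calls in saline mice held under all 7 other settings and when any 1 of the 20 libraries was left out, as did the 10 calls in ISRIB mice under 7 settings and 19 libraries left out. The median log2 fold change of the 10 receptors was -1.09 in saline mice, beside -0.0018 over all genes.

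Levels can be compared between genes only per length, here as CPM per kilobase of annotated exon. In these units the summed level of the 10 receptors was 425 ± 52.5 (SD, n = 20) in monocytes and 427 ± 45.8 (SD, n = 19) in macrophages, so the sums differed by less than the spread between libraries. The makeup of the sum differed. Receptors of the cell surface took 36.9% ± 6.68 of it in monocytes (26.4% to 50.2%) and 65.2% ± 5.25 in macrophages (55.0% to 75.9%), with no overlap between the cell types. Of the surface receptors, only Tlr2 and Tlr4 had larger mean shares in macrophages. Those of Tlr1 (2.46% in monocytes and 0.949% in macrophages), Tlr6 (2.20% and 0.895%) and Tlr5 (0.872% and 0.206%) were smaller. In macrophages Tlr2 alone took 56.8% ± 5.68, followed by Tlr8 with 13.7% ± 1.78, Tlr7 with 9.42% ± 2.10 and Tlr13 with 9.40% ± 1.57. In monocytes Tlr2 took 29.5% ± 7.20 and Tlr13 took 25.5% ± 2.40, followed by Tlr7 with 18.1% ± 3.24, Tlr8 with 11.4% ± 2.34 and Tlr9 with 7.92% ± 2.05. The order of Tlr2 and Tlr13 differed between the monocyte groups. By mean share Tlr2 was above Tlr13 in young saline (34.6% and 25.4%), old ISRIB (33% and 23%) and old saline monocytes (26.9% and 25.4%), and below it in young ISRIB monocytes (23.6% and 28.2%). In macrophages Tlr2 took the largest share in all 4 groups. The share of Tlr9 was 1.12% ± 0.35 in macrophages, and that of Tlr4 went from 1.86% ± 0.70 in monocytes to 6.29% ± 0.98 in macrophages. These shares describe the libraries and have no test of their own.

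**Figure D3:**
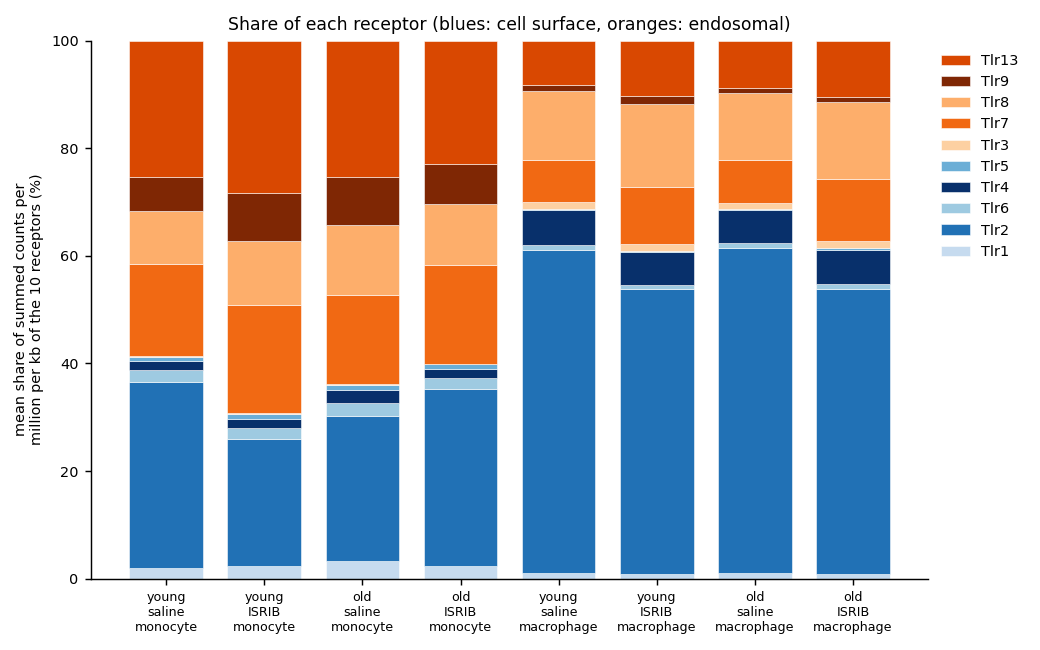
Stacked bars of the mean share (percent, vertical axis) that each receptor took of the summed CPM per kilobase of all 10, in each of the 8 groups; blues are cell-surface and oranges endosomal receptors. Tlr2, the medium blue, takes 23.6% to 34.6% in the monocyte groups and 52.9% to 60.6% in the macrophage groups.

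The second comparison asked how the receptors in macrophages differed between ISRIB and saline mice. Averaged over both ages, 1 receptor rose, Tlr7, with a log2 fold change of 0.48 ± 0.08 (1.39-fold, edgeR adjusted p = 0.00920), beside a background of 0.830% of 12171 genes called. Tlr7 held the fourth lowest p-value of all genes. It stayed called in all 7 other settings (adjusted p at most 0.0227) and in all 19 fits that left out 1 library (at most 0.0323).

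In young mice Tlr7 measured 133, 124, 161, 128 and 120 CPM in the saline macrophages and 197, 214, 164 and 193 CPM in the ISRIB macrophages. The lowest ISRIB library was just above the highest saline library. In old mice it measured 136, 114, 130, 147 and 180 CPM with saline and 173, 192, 218, 174 and 190 CPM with ISRIB, and old saline replicate 5 lay within the ISRIB range. Within each age the adjusted p missed the threshold (young, log2 fold change 0.56 ± 0.12, edgeR adjusted p = 0.0929; old, 0.40 ± 0.11, adjusted p = 0.248). The ISRIB effect on Tlr7 was not shown to differ between the ages (difference -0.16 ± 0.16, adjusted p = 0.981).

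Tlr8 and Tlr13 were also higher on average with ISRIB in macrophages and did not pass the test. In young mice Tlr8 measured 208, 173, 179, 212 and 201 CPM with saline and 233, 253, 217 and 267 CPM with ISRIB, with no overlap. In old mice it measured 188, 189, 172, 199 and 209 CPM with saline and 213, 200, 220, 215 and 199 CPM with ISRIB, and the groups overlapped. Averaged over both ages the log2 fold change was 0.23 ± 0.06 (edgeR adjusted p = 0.0599), and over 7 other settings the adjusted p ranged from 0.0179 to 0.551. Without young ISRIB macrophage replicate 3, or without old saline macrophage replicate 5, Tlr8 was called, and over the 19 fits that left out 1 library its adjusted p ranged from 0.0143 to 0.133.

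Tlr13 measured 155, 147, 151, 161 and 133 CPM in young saline macrophages and 192, 215, 169 and 205 CPM in young ISRIB macrophages, again with no overlap. In old mice it measured 181, 149, 131, 184 and 172 CPM with saline and 168, 167, 167, 189 and 220 CPM with ISRIB, with wide overlap. Averaged over both ages the log2 fold change was 0.28 ± 0.08 (edgeR adjusted p = 0.0871, 0.0161 to 0.193 over 7 other settings). Without young ISRIB macrophage replicate 3 it was called (adjusted p = 0.0258), the lowest of the 19 fits that left out 1 library. In young mice these 3 receptors, Tlr7, Tlr8 and Tlr13, were those with no overlap between treatments, 3 of 10 beside 3.90% of all genes. In old mice there was none, beside 1.08%.

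The other 7 receptors did not pass the test in this comparison, and their log2 fold changes ranged from -0.24 (Tlr1) to 1.0 (Tlr5). Tlr2 averaged -0.22 ± 0.10 (edgeR adjusted p = 0.295), Tlr9 0.22 ± 0.15 (adjusted p = 0.484) and Tlr5 1.0 ± 0.51 (adjusted p = 0.332). With each age on its own, 0 of 10 receptors were called, in young mice beside a background of 0% and in old mice beside 0%. At an unadjusted p under 0.05 there were 4 in young mice (12.4% of all genes) and 2 in old mice (9.14%). DESeq2 called 3 and 1, beside 119 and 48 of all genes, where edgeR called 0. Limma voom called 0 and 0, beside 0 of all genes at either age.

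Summed markers of other cells and of macrophage states were compared between the macrophage groups without a test. The saline and ISRIB ranges overlapped at both ages for each list given here. Within each treatment the B cell, neutrophil and T and NK cell sums were higher in old mice with no overlap. The fibroblast list, mostly Fn1, was lower in old mice with no overlap (saline, 6887 to 10620 CPM old and 11852 to 18644 CPM young). With ISRIB it was 5199 to 8485 and 12017 to 14095 CPM. In ISRIB mice alone the plasma cell sums were higher in old mice with no overlap (445 to 974 and 255 to 365 CPM), and the macrophage sums lower. The sums of resident alveolar and fibrosis-associated macrophage markers overlapped between the ages. The 8 B cell markers summed to 0.290 to 7.05 CPM in young saline, 2.14 to 9.64 CPM in young ISRIB, 9.52 to 33.6 CPM in old saline and 19.6 to 46.5 CPM in old ISRIB macrophages. Among them, Cd79a was at 0 in 2 and Ms4a1 in 5 of the 19 macrophage libraries. The 8 markers of resident alveolar macrophages, among them Siglecf and Fabp4, summed to 976 to 1285, 815 to 1322, 815 to 1280 and 1093 to 2208 CPM in the same order of groups. The 8 markers of fibrosis-associated macrophages, among them Spp1 and Gpnmb, summed to 16396 to 18132, 14600 to 19126, 11854 to 19869 and 9931 to 18110 CPM. The 8 neutrophil markers summed to 23.8 to 31.3, 26 to 32.7, 35.9 to 54.8 and 43.8 to 69.5 CPM. The 8 T and NK cell markers summed to 5.04 to 6.93, 4.66 to 9.75, 7.14 to 23.4 and 14.1 to 32.2 CPM. The part of these markers in the Tlr7 result was not tested.

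In monocytes ISRIB called 0 of 10 receptors averaged over both ages, beside a background of 0%. At an unadjusted p under 0.05 there was 1 of 10, Tlr7, beside 7.49% of all genes, and DESeq2 and limma voom called 0. Tlr7 measured 313, 353, 371, 236 and 269 CPM in young saline and 360, 330, 314, 428 and 329 CPM in young ISRIB monocytes, with overlap. Its log2 fold change over both ages was 0.21 ± 0.09 (edgeR adjusted p = 0.641). The ISRIB effect on Tlr7 was larger in macrophages by 0.26 ± 0.13 on the log2 scale, which did not pass the test (adjusted p = 0.603, 95% interval -0.01 to 0.53). For this difference between cell types, added after the data were seen, edgeR called 0 of 10 receptors beside a background of 0%, 1 of 10 had an unadjusted p under 0.05 (8.38% of all genes), and DESeq2 and limma voom called 0.

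**Figure D4:**
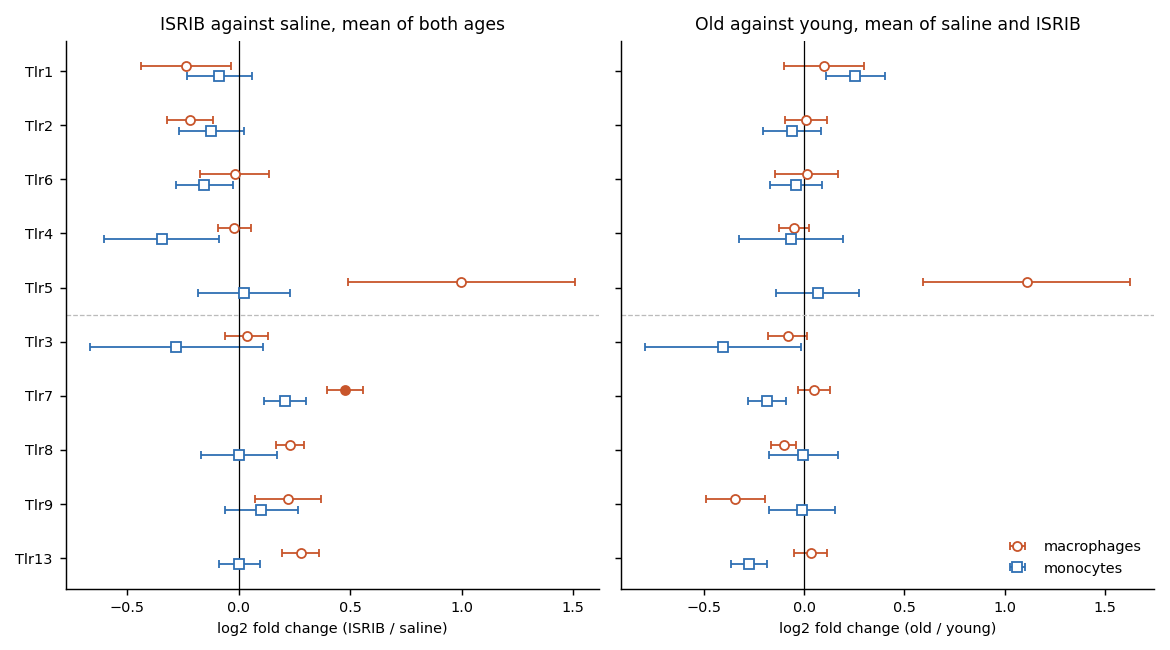
Log2 fold changes with standard errors for ISRIB over saline (left) and old over young (right), in macrophages (orange circles) and monocytes (blue squares); filled points have an edgeR adjusted p under 0.05. Tlr7 in ISRIB macrophages (0.48) is the single filled point, and the widest bars are those of Tlr5 in macrophages and Tlr3 in monocytes.

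The third comparison asked how the receptors differed with age. In macrophages 0 of 10 were called in saline mice (background 1.16%), in ISRIB mice (background 0.937%) or averaged over both (background 4.86%). At an unadjusted p under 0.05 there were 0, 2 and 2 receptors, beside 12.7%, 12.2% and 17.8% of all genes, and DESeq2 and limma voom called 0 in each. Tlr5 averaged 1.11 ± 0.51 higher in old macrophages on the log2 scale (edgeR adjusted p = 0.252, and 0.0491 with no filter on low counts). Tlr9 averaged 0.34 lower (log2 fold change -0.34 ± 0.15, adjusted p = 0.204).

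Tlr5 split the old saline macrophages. Its levels there were 0.628, 0.226, 10.7, 0.132 and 7.33 CPM, so replicates 3 and 5 stood above the other 3 libraries. In the same 5 libraries, in the same order, Tlr1 measured 20.7, 17.6, 6.02, 21.5 and 9.06 CPM, lowest in the 2 libraries where Tlr5 was highest. The B cell markers summed to 10.9, 14.1, 33.6, 9.52 and 18.8 CPM in that order and were also highest in replicates 3 and 5. Young saline macrophages had 2.47, 0.646, 0.836, 2.90 and 1.37 CPM of Tlr5, young ISRIB macrophages 4.63, 3.14, 2.18 and 4.13 CPM, and old ISRIB macrophages 8.80, 9.36, 9.62, 3.66 and 3.23 CPM. Over all 19 macrophage libraries Pearson's r of log2 CPM was -0.756 between Tlr5 and Tlr1 and -0.732 between Tlr5 and Tlr2, a description over libraries that share groups and depth.

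In monocytes 0 of 10 receptors were called with age in saline mice (background 0.0247%), in ISRIB mice (background 0%) or over both (background 0.123%). There were 2, 2 and 1 at an unadjusted p under 0.05, beside 8.81%, 6.60% and 8.24% of all genes, and DESeq2 and limma voom called 0 in each. Tlr13 averaged -0.27 ± 0.09 in old monocytes on the log2 scale (edgeR adjusted p = 0.371). Tlr1 had the highest monocyte mean in old saline mice, 43.7 ± 7.42 CPM against 28.5 ± 4.94 CPM in young saline mice (SD, n = 5), a log2 fold change of 0.57 ± 0.21 that did not pass the test (adjusted p = 0.403).

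In monocytes Tlr2 had the lowest p-value of the 10 receptors for a difference between ages in the ISRIB effect, and it did not pass the test. It measured 523, 430, 305, 433 and 673 CPM in young saline and 306, 301, 255, 254 and 425 CPM in young ISRIB monocytes. It measured 315, 368, 225, 364 and 355 CPM in old saline and 316, 315, 420, 526 and 491 CPM in old ISRIB monocytes. The log2 fold change with ISRIB was -0.64 ± 0.21 in young and 0.40 ± 0.21 in old mice, and the groups overlapped at both ages. The difference between these effects was 1.04 ± 0.29, with an unadjusted edgeR p of 0.00163 and an adjusted p of 0.478. For this difference 0 of 10 receptors were called beside a background of 0%, 2 had an unadjusted p under 0.05 (7.11% of all genes), and DESeq2 and limma voom called 0.

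The age effect itself was compared between the cell types, with 0 of 10 receptors called beside a background of 0.743%. One receptor, Tlr13, had an unadjusted p under 0.05, beside 11.5% of all genes, and DESeq2 and limma voom called 0. Tlr13 differed by 0.31 ± 0.13 on the log2 scale (edgeR adjusted p = 0.313) and Tlr5 by 1.07 ± 0.54 (adjusted p = 0.450).

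The order of the 8 groups showed the same division for every receptor. The 4 groups of one cell type took the first 4 places by mean CPM and the other 4 groups the rest. At the border between the cell types the neighbouring groups did not overlap for Tlr3, Tlr4, Tlr6, Tlr9 and Tlr13. Neither the order nor the border was computed over all genes. In saline mice 70.0% of all genes were called between the cell types, so the division is not read as particular to the receptors. All neighbours within a cell type overlapped, for each of the 10 receptors. For Tlr8, young ISRIB macrophages were first (243 ± 22.1 CPM, SD, n = 4) and old ISRIB monocytes last (167 ± 20.4 CPM, SD, n = 5).

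Genes that work with the receptors were read from fixed lists, first between the cell types in saline mice. Each count of this comparison stands beside 35.8% of all genes called higher and 34.2% called lower, and no difference from that background was tested. Of 17 genes of endosomal trafficking and processing, 9 were higher and 4 lower in macrophages, with a median log2 fold change of 0.23. They include Pld3, an endolysosomal nuclease, which averaged 35.4 CPM in monocytes and 1545 CPM in macrophages (log2 fold change 5.53 ± 0.09, edgeR adjusted p = 1.39e-35). The proteases Ctsl (3.93 ± 0.21), Lgmn (2.43 ± 0.10) and Ctss (2.22 ± 0.08), which cleave endosomal receptors, were higher as well. Unc93b1, the chaperone that carries nucleic acid receptors to endosomes, was lower (-0.61 ± 0.07, adjusted p = 4.53e-10).

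Of 10 co-receptors and accessory proteins, 3 were higher and 6 lower in macrophages (median -0.75). Cd36, a scavenger receptor that aids Tlr2, was higher (2.45 ± 0.31), and Lbp (-2.97 ± 0.48), Itgam (-2.59 ± 0.16) and Ly86 (-1.47 ± 0.09) were lower. For Tlr4, whose own level was higher, the co-receptor Cd14 was lower (-0.92 ± 0.23, edgeR adjusted p = 5.48e-04) and Ly96, which encodes MD-2, did not pass the test (0.13 ± 0.16, adjusted p = 0.473). Unc93b1, Cd14 and Ly96 were singled out for their roles after their values were seen.

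Of 6 adaptors tested, 2 were higher and 2 lower (median -0.15). Scimp (4.17 ± 0.27) and Pik3ap1 (1.91 ± 0.12) were higher, while Myd88 (-0.65 ± 0.11) and Ticam1 (-0.47 ± 0.14) were lower. Of 20 kinases and ubiquitin ligases, 2 were higher and 12 lower (median -0.43). The lowest were Ikbkb (-1.80 ± 0.07), Tab2 (-1.61 ± 0.07), Traf3 (-1.09 ± 0.12) and Irak4 (-0.81 ± 0.08).

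Of 14 transcription factors, 0 were higher and 13 lower in macrophages (median -1.29). Irf7, which drives interferon genes after endosomal receptors signal, averaged 267 CPM in monocytes and 27 CPM in macrophages (log2 fold change -3.21 ± 0.23, edgeR adjusted p = 1.69e-15). Atf3 (-2.87 ± 0.24), Irf1 (-2.02 ± 0.20) and Rel (-1.94 ± 0.20) followed. Of 22 negative regulators, 4 were higher and 16 lower (median -0.76), with Trem2 higher (3.14 ± 0.16) and Dusp2 (-4.26 ± 0.25), Dusp1 (-2.38 ± 0.19) and Usp18 (-2.32 ± 0.24) lower. Trem2 is also among the markers of fibrosis-associated macrophages used here, so its excess is not independent of the cell label.

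Of 19 inflammatory target genes, 5 were higher and 11 lower (median -1.26). Il1a (3.95 ± 0.35) and Cxcl1 (3.69 ± 0.61) were higher in macrophages, and Ptgs2 (-4.78 ± 0.44) and Il6 (-2.63 ± 0.59) were lower. Of 19 other pattern receptors, 5 were higher and 12 lower (median -0.84). The lectin receptors Clec4n (5.48 ± 0.20) and Clec7a (2.08 ± 0.12) and the formyl peptide receptor Fpr1 (4.6 ± 0.23) were higher, and Clec4e (-1.91 ± 0.25) was lower. Of the 2 remaining mouse Toll-like receptors, Tlr11 was lower (-2.57 ± 0.51, edgeR adjusted p = 2.50e-05) and Tlr12 did not pass the test, and both averaged under 5 CPM in either cell type.

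**Figure D5:**
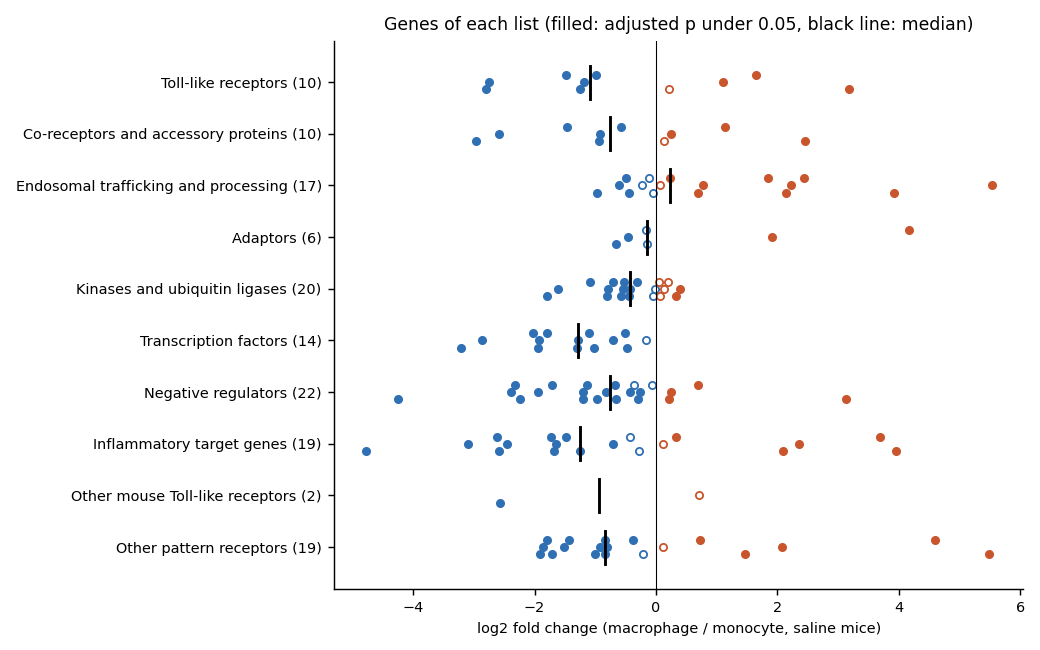
Log2 fold change of macrophages over monocytes in saline mice (horizontal axis) for each tested gene of the 10 receptors and of the 9 lists, number of genes in parentheses; filled points have an edgeR adjusted p under 0.05, orange is higher, blue lower, and the black line is the median. The transcription factors lie at or below 0 (median -1.29), and the trafficking genes reach 5.53 (Pld3).

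With ISRIB in macrophages, averaged over both ages, 1 of 10 co-receptors rose and 1 of 14 transcription factors, 1 of 22 negative regulators and 1 of 18 inflammatory target genes fell, beside the background of 0.452% of all genes higher and 0.378% lower. Cd36 averaged 237 CPM with saline and 412 CPM with ISRIB (log2 fold change 0.76 ± 0.15, edgeR adjusted p = 0.0179). Irf1 averaged 49.8 and 34.3 CPM (-0.53 ± 0.11, adjusted p = 0.0325), and Socs3, a feedback inhibitor of cytokine signalling, 180 and 135 CPM (-0.42 ± 0.10, adjusted p = 0.0429). These 3 calls were lost in the fit of all 39 libraries (adjusted p = 0.265, 0.264 and 0.251). The loss of 1 library ended the call of Cd36 in 2 of 19 fits (young ISRIB macrophage replicates 1 and 2, adjusted p = 0.0620 and 0.0514), of Irf1 in 8 and of Socs3 in 13. None of the endosomal trafficking genes, adaptors or kinases was called with ISRIB.

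With age in macrophages, averaged over saline and ISRIB, 5 of 22 negative regulators and 4 of 18 inflammatory target genes were higher in old mice, beside 3.12% of all genes. One gene of each of these lists was lower, beside 1.74% of all genes. Among adaptors, transcription factors and trafficking genes, 1 of 6, 1 of 14 and 1 of 17 were lower and 0 were higher. Among other pattern receptors, co-receptors and kinases, 3 of 19, 1 of 10 and 1 of 20 were higher and 0 were lower. In monocytes 0 genes of the 9 lists were called with ISRIB over both ages, beside 0% of all genes.

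For each receptor the genes most like it were those with the highest value of the lower of 2 Pearson correlations of log2 CPM, over 19 macrophage and over 20 monocyte libraries, among 11165 genes. The libraries share groups and depth, so these are descriptions. The strongest likeness was of Tlr2 with Clec4e (0.888 in macrophages and 0.828 in monocytes), another pattern receptor, followed by Slc2a1 (0.731 and 0.798). Tlr8 was most like Cbl (0.798 and 0.907) and Asah1 (0.853 and 0.790). Tlr7 was most like Tgfbr1 (0.766 and 0.751) and Klhl24 (0.746 and 0.777). Tlr13 was most like Mitf (0.753 and 0.726), and Tlr5 most like Cd164 (0.797 and 0.749). For Tlr1, Tlr3, Tlr4, Tlr6 and Tlr9 the first gene on the list reached lower values, from 0.579 (Tlr6 with Ptcd2) to 0.672 (Tlr3 with Cog5). Among the receptors themselves, r over macrophages was 0.736 for Tlr7 with Tlr13, 0.747 for Tlr8 with Tlr13 and 0.675 for Tlr7 with Tlr8. Over monocytes the same pairs reached 0.373, 0.580 and 0.230. These are the 3 receptors whose young ISRIB and saline macrophages did not overlap. The macrophage r was taken across those groups, so it is not independent of that difference.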

How the data were processed

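Counts per gene for all 39 libraries were deposited by the authors as 1 table of whole-number counts with no normalization. Per the submitters' processing notes, which name tools with no role or order, bcl2fastq 2.19.1, FastQC, Trimmomatic 0.36, STAR 2.6.0 and HTSeq 0.11.2 were used with build mm10. Per the labels' protocols, libraries were polyA-selected from 3 ng of total RNA. No source used here gives the gene annotation or strand setting of the counting. Symbols and exon lengths came from GENCODE vM21, and 42462 of 43430 identifiers had a symbol.

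Groups came from the sample titles. CPM is the count divided by the library total. Comparisons were fitted in R 4.3.3 with edgeR 4.0.16 (TMM scaling, filterByExpr with a minimum count of 10 and a minimum total of 15, quasi-likelihood test, Benjamini-Hochberg threshold 0.05). Macrophages were fitted over 19 libraries (12171 genes), monocytes over 20 (12170 genes) and comparisons of cell types over all 39 (13587 genes). There were 17 planned comparisons and 1 was added after the data were seen. The SE is the log2 fold change divided by the square root of the F statistic. The code was tested on simulated counts. Alternatives were RLE scaling, scaling by library totals (added after the data were seen), no filter on low counts, a replicate block, DESeq2 1.42.0, limma voom (limma 3.58.1), other sets of libraries in the fit, and leaving out each library. A chi-square test of 76 pairs of libraries within groups gave 7.04 to 52.8 per degree of freedom, so no pair agreed within sampling noise.

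Members, lists and comparisons were chosen with earlier results of these data known. Each receptor is counted in every comparison, and in several comparisons only some are printed with their values. No receptor left unprinted in a comparison passed the test there. Of each list up to 4 called genes per comparison are eligible for naming, ranked by absolute log2 fold change among those whose higher group averages 5 CPM or more. Genes shared between the lists and the marker sets are not independent. The number of libraries and the library totals limit the precision.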

Additional observations from a re-analysis of the deposited data

Results flagged for a closer look

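Among 80 combinations of receptor and group, 2 had a library whose distance to the nearest other library, as a share of the whole range of the group, passed Dixon's 95% critical value (0.710 for 5 libraries, 0.829 for 4). Chance flags about 1 in 20 groups, so 2 of 80 is no more than chance gives. Tlr1 measured 20.6 CPM in young saline macrophage replicate 2 and 12.1 to 13.5 CPM in the other 4 libraries of that group. Tlr4 measured 175 CPM in old ISRIB macrophage replicate 3 and 133 to 140 CPM in the other 4.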

How the results depend on the processing

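No direction of a receptor named with its value reversed under any setting run. The number of receptors called moved by more than 1.5 times in 4 comparisons, all within macrophages. Between the cell types in saline mice it was 9, and 10 without young saline monocyte replicate 5 (Tlr8). For ISRIB over both ages it was 1 and became 3 with no filter, 3 with DESeq2 and 2 with limma voom, and 1 to 3 when 1 library was left out (3 without young ISRIB macrophage replicate 3, 2 without old saline macrophage replicate 5). For ISRIB in young mice it was 0 and became 2 with no filter, 3 with DESeq2, and 0 to 3 when 1 library was left out. For ISRIB in old mice it was 0 and became 1 with no filter and 1 with DESeq2. Over all genes DESeq2 called 119 in young and 48 in old mice, where edgeR called 0. Counts over all genes under the other settings are not given here. For age over both treatments it was 0 and became 1 with no filter (Tlr5, adjusted p = 0.0491). The cause was not tested. The labels do not state that replicate numbers pair the libraries. On average same-numbered libraries showed no shared deviation. An average cannot exclude a batch shared by some of them, and single pairs reached 0.165 in macrophages and 0.242 in monocytes. Same-numbered libraries of different groups had a mean correlation of deviations of 0.00347 in macrophages (2 of 27 pairs over 0.1) and -0.00706 in monocytes (4 of 30 pairs over 0.1). With the replicate block the ISRIB count over both ages in macrophages was 3. Scaling by library totals moved the median log2 fold change of all genes between cell types to -0.087 in saline and -0.079 in ISRIB mice. Depth limits the receptors with few reads, with at most 47 counts of Tlr3 in a monocyte library and a single count of Tlr5 in 1 macrophage library.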

Other observations

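Downstream of the receptors, several genes of the signalling lists were higher in old than in young macrophages, averaged over saline and ISRIB, while no receptor was called. With saline alone 2 of 22 negative regulators and 3 of 18 inflammatory target genes were called higher with age, and 1 target gene lower (background 1.16%). With ISRIB alone 0 genes of these 2 lists were called (background 0.937%). The difference between ages of the ISRIB effect was called for 0 of them (background 0%). Il1a, an inflammatory cytokine, averaged 64.3 CPM in macrophages of old mice against 32.2 CPM in young (log2 fold change 1.01 ± 0.16, edgeR adjusted p = 3.00e-04). The chemokine Ccl3 averaged 52.9 and 28.8 CPM (0.91 ± 0.19, adjusted p = 0.00592). Tnfaip3, Nfkbia and Nfkbie, which restrain NF-kB signalling, were higher by 0.65 ± 0.14, 0.45 ± 0.11 and 0.60 ± 0.15 on the log2 scale (adjusted p = 0.00744, 0.0184 and 0.0181). Pld4, an endolysosomal nuclease, was lower in old macrophages (394 against 516 CPM, -0.37 ± 0.06, adjusted p = 3.03e-04). The libraries of both ages overlapped for each of these genes. In the fit of all 39 libraries the calls of Il1a, Tnfaip3, Nfkbia and Nfkbie were lost (adjusted p = 0.0597, 0.0686, 0.0542 and 0.0999), while those of Ccl3 and Pld4 held in every setting run. The summed B cell, neutrophil and T and NK cell markers were also higher in old macrophage libraries, as given above, and their part in these differences was not tested.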
